A study of Mus musculus with 6 samples.

Results

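The Schlafen family of the mouse is represented here by 7 genes, Slfn1, Slfn2, Slfn3, Slfn4, Slfn5, Slfn8 and Slfn9, which were taken from the count table by gene symbol. All 7 were found among the 55401 gene identifiers of the table. RNA came from ADC106, a cell line from a mouse angiosarcoma, a cancer that arises from the endothelium of blood vessels. The cells were transfected with a synthetic microRNA mimic at 12.5 nM and harvested on day 3. In the first group the mimic was an NC mimic and the genotype label was WT. In the second the mimic was miR-497 and the genotype label was miR-497 overexpression. Each group had 3 libraries, and all 6 came from the same line, so the results describe this line only. The labels do not say whether the 3 libraries of a group came from separate cultures; p-values measure the spread between these libraries, which may be technical.

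Schlafen proteins are named after the German word for sleep, because forced expression of the founding member slowed the growth of thymocytes. The family is induced by type I interferon, a secreted antiviral signal that acts through its receptor, the kinases Jak1 and Tyk2, and a complex of transcription factors that includes Stat2 and Irf9. That complex binds a promoter element called ISRE. The proteins share an amino-terminal core that binds RNA and, in several members, cuts transfer RNA; the long members add a helicase-like part. Slfn2 holds T cells and monocytes in quiescence, Slfn4 is best known from myeloid cells, and Slfn5 is widely expressed and has been linked to the restraint of interferon-driven transcription.

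The genes lie in a cluster on mouse chromosome 11 (build GRCm38), where the 7 members span positions 82951349 to 83215154, or 264 kb. Slfn5, Slfn2, Slfn1, Slfn4 and Slfn3 are on the plus strand, and Slfn9 and Slfn8 on the minus strand. Their longest coding sequences fall into the 3 size classes known for the family. Slfn1 (1014 bases with the stop codon) and Slfn2 (1137 bases) are short, Slfn4 (1809 bases) and Slfn3 (1923 bases) are intermediate, and Slfn5 (2655 bases), Slfn8 (2733 bases) and Slfn9 (2733 bases) are long.

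Promoter sequence is shown first because, in the windows searched, only the 3 long members held an ISRE core. RefSeq promoter windows (GRCm38.p6, 250 bases before to 50 after a transcription start, 300 bases in all) matched all 7 members, with 8 windows since Slfn8 has 2 starts. They were searched on both strands for the ISRE core GAAANNGAAA, the shorter IRF motif AANNGAAA and the GAS motif TTCNNNGAA; every ISRE core also holds the shorter motif. The 3 long members each held 1 ISRE core. In the stretches below, 5′ to 3′ on the gene's own strand, capitals mark the ISRE core, which in Slfn9 and Slfn8 reads on the opposite strand.
Slfn9, chr11:82991841-82991900, minus strand: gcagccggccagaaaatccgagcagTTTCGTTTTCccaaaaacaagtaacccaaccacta
Slfn8, chr11:83020824-83020883, minus strand: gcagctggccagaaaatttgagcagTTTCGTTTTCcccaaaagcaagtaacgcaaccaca
Slfn5, chr11:82951922-82951981, plus strand: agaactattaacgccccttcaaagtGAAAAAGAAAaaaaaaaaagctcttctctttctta
Relative to the start, the core began at position -45 in Slfn9, at -48 from the first start of Slfn8 and at -155 in Slfn5. The RefSeq start used for Slfn5 lies inside the gene span, which begins at position 82951349. Its window also lies inside the span, so the sequence before position 82951349 was not searched. None of these stretches overlaps an annotated exon. Those of Slfn9 and Slfn8 are nearly alike in their letters, so their matches are not independent, and the Slfn5 match runs into a stretch of A. An ISRE core was present in 3.44% of all 32851 promoter windows, the shorter IRF motif in 23.9% and the GAS motif in 8.3%. No window of a member held the GAS motif.

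The short and intermediate members had no ISRE core in these windows but each held the shorter IRF motif. Their longest common run of letters was ACTTCCTGG, a word found after the sequences were seen. The search was for a run shared by these members, so each of them holds it by construction. The word was present in 0.843% of all windows, on either strand, and in none of the windows of Slfn5, Slfn8 and Slfn9. That share is for this word alone and is no baseline for finding some common word. The stretches below carry the word in capitals.
Slfn1, chr11:83116721-83116779, plus strand: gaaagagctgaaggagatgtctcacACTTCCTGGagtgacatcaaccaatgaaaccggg
Slfn2, chr11:83065032-83065090, plus strand: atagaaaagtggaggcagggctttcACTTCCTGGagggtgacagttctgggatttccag
Slfn3, chr11:83191263-83191321, plus strand: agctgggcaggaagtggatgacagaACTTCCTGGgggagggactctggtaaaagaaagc
Slfn4, chr11:83175088-83175146, plus strand: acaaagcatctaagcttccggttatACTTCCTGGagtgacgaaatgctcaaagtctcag
The word began at position -74 in Slfn1, -55 in Slfn2, -42 in Slfn3 and -73 in Slfn4. A match describes the letters and is not evidence that a factor binds there, and binding was not measured.

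**Figure D1:**
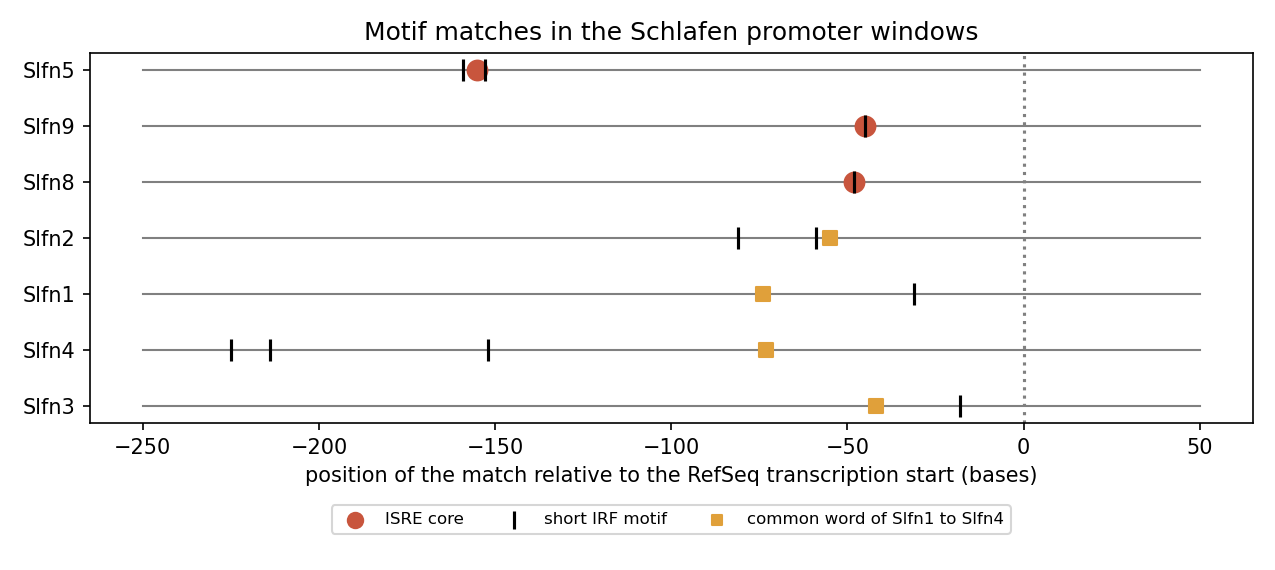
Positions of motif matches in the promoter windows of the 7 members, in bases relative to the RefSeq transcription start (dotted line). Circles mark the ISRE core, vertical ticks the shorter IRF motif, and squares the word common to Slfn1, Slfn2, Slfn3 and Slfn4; for Slfn8 the first of its 2 starts is drawn. Circles appear in the rows of Slfn5, Slfn9 and Slfn8 and squares in the other 4 rows.

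Sites for the mimic were looked for in the transcripts themselves. A microRNA pairs with messages mainly through its seed, bases 2 to 8, shown here in capitals for the 2 mature strands of the mouse gene Mir497, as RefSeq gives them (GRCm38.p6).
mmu-miR-497a-5p: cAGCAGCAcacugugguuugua
mmu-miR-497a-3p: cAAACCACacugugguguuag
The sequence of the synthetic mimic is not given in the labels. A 3' UTR site for the 5p strand was TGCTGCT or GCTGCTA. Of 12859 tested genes with a 3' UTR in the GENCODE M21 transcripts, 28.1% had such a site in their longest 3' UTR. Of the 7 members, only Slfn1 had one, shown with the site in capitals together with both matches in its coding sequence.
Slfn1, 3' UTR: cccaagctcacTGCTGCTtcatgagcccc
Slfn1, first coding match: atgaacttggaTGCTGCTcagaagttctt
Slfn1, second coding match: caggagttggcTGCTGCTttttttaaaca
The 3' UTRs of Slfn2 (345 bases), Slfn3 (53 bases), Slfn4 (922 bases), Slfn5 (3136 bases), Slfn8 (1706 bases) and Slfn9 (2786 bases) held no such site, and neither did their coding sequences. For the 3p strand, whose sites are GTGGTTT and TGGTTTA, the 3' UTR of Slfn5 had 2 sites and that of Slfn1 had 1. The coding sequences of Slfn1, Slfn8 and Slfn9 each had 1 match for the 3p strand, and those of the other members had none. No share over all genes is given for the 3p strand.

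The libraries held 25777676 to 36159499 counts, and levels are given as CPM, counts scaled to the TMM-adjusted library size. Mitochondrially encoded genes took 2.03% to 2.15% of the counts in NC libraries and 2.94% to 3.77% in miR-497 libraries. All 12 endothelial markers passed the filter on low counts, with a summed level of 9851 to 10543 CPM in NC and 9506 to 9974 CPM in miR-497 libraries. The sums hide changes in both directions: in the edgeR test described below, 4 were lower, 7 higher and 1 was not called. Those with the smallest p were Emcn (log2 fold change 1.03), Cldn5 (1.02), Egfl7 (-0.94) and Pecam1 (-0.52). Of 10 T cell markers, 1 (Lck) passed the filter on low counts; their summed level was 17.8 to 19.3 CPM in NC and 17.1 to 18.6 CPM in miR-497 libraries, and Cd3d, Cd3e, Cd3g and Cd2 were at 0 in all 6. The counts of Ptprc, which marks all leukocytes, were 4 to 7 per library. Of 12 myeloid markers, 5 passed, with Cd68 higher (log2 fold change 1.08); their sum was 12.4 to 13.9 CPM in NC and 18.5 to 23.9 CPM in miR-497 libraries, and Itgam, S100a9 and Tyrobp were at 0. Fibroblast markers (7 of 9 tested) summed to 337 to 355 CPM in NC and 518 to 617 CPM in miR-497 libraries, with Lum at 0. Epithelial markers (2 of 7 tested) summed to 2.10 to 4.74 CPM and 1.84 to 5.17 CPM. The part of the mitochondrial share and of these marker levels in the results was not tested.

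The expressed Schlafen genes were lower in cells given the miR-497 mimic, by amounts from 1.31-fold for Slfn5 to 3.86-fold for Slfn4. The comparison asks how the genes of this line respond to miR-497. It was tested with edgeR's quasi-likelihood test over 14661 genes, with p-values adjusted by Benjamini-Hochberg over all of them and a threshold of 0.05. Of the 7 members, 6 were tested and 6 were called lower, with a median log2 fold change of -1.65; 5 of them were lower by at least 2-fold. Over all tested genes 49.8% were called, 26.0% lower and 23.8% higher, 5.19% were called and lower by at least 2-fold, and the median was -0.02. In all 6 tested members every miR-497 value lay below every NC value, as in 29.6% of all tested genes. Slfn4 was over the cut-off of the filter in all 3 NC libraries but in only 2 miR-497 libraries, too few to pass without NC. Its direction was therefore partly set by the filter. The other 5 passed in both groups and were lower by 1.31-fold for Slfn5 to 3.46-fold for Slfn9. In bulk RNA, fewer cells expressing a gene and less RNA per cell cannot be told apart.

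Among the long members, Slfn9 and Slfn8 had the larger falls. Slfn9 (ENSMUSG00000069793), a long member with the helicase-like part, was measured at 208, 212 and 217 CPM with NC (libraries 1, 2 and 3 in order, here and below) and at 66.0, 65.3 and 52.9 CPM with miR-497. The groups lay far apart, with the highest miR-497 value far below the lowest NC value. Its mean went from 212 ± 4.17 to 61.4 ± 7.37 CPM (SD, n = 3), and the log2 fold change was -1.79 (SE 0.0716, adjusted p = 7.33e-12 by edgeR), which left 28.9% of the NC level. Its paralog Slfn8 (ENSMUSG00000035208) was scarce, at 8.30, 8.02 and 6.997 CPM with NC and at 1.71, 3.05 and 2.13 CPM with miR-497. The Slfn8 groups did not overlap, and its log2 fold change of -1.75 (SE 0.210, adjusted p = 2.8e-06 by edgeR) was close to that of Slfn9 although it rested on 43 to 293 counts per library against 1612 to 7752.

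Slfn5 (ENSMUSG00000054404), the remaining long member, had the smallest log2 fold change of the tested members. It was measured at 211, 216 and 204 CPM with NC and at 166, 160 and 156 CPM with miR-497. The groups did not overlap, but the gap between them was narrow next to that of Slfn9. Its mean went from 210 ± 6.32 to 161 ± 5.08 CPM (SD, n = 3), and the log2 fold change was -0.39 (SE 0.0514, adjusted p = 7.9e-06 by edgeR), which left 76.3%. Of the tested genes, 24.1% had a log2 fold change as low as that of Slfn5 or lower, against 1.47% for Slfn9 and 1.57% for Slfn8. The antisense gene Slfn5os covers 8.84% of the exon bases of Slfn5, and the labels do not say whether strand was used in counting; Slfn5os itself had 12 to 28 counts per library.

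Slfn5 and Slfn9 were almost equally counted with NC and clearly unequal with miR-497. The ratio of Slfn5 to Slfn9 counts was 1.01, 1.02 and 0.940 with NC and 2.52, 2.45 and 2.95 with miR-497. On the log2 scale the ratio went from -0.01 ± 0.0649 to 1.39 ± 0.145 (SD, n = 3), a difference of 1.41 (exact permutation test, 2-sided, p = 0.1, the smallest that 3 against 3 allows; 0.188 after Benjamini-Hochberg adjustment over 15 pairs). No pair of members could pass the threshold in this design, so the pairs are described by whether the groups overlap.

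The intermediate members differed in abundance. Slfn3 (ENSMUSG00000018986), described in T cells and in the differentiation of gut epithelium, was measured at 94.9, 98.0 and 96.9 CPM with NC and at 48.6, 49.0 and 41.3 CPM with miR-497. The NC values were close together, and every miR-497 value lay well below them. Its log2 fold change was -1.06 (SE 0.0699, adjusted p = 2.41e-09 by edgeR), which left 47.9%. Slfn4 (ENSMUSG00000000204) was near the limit of detection, with 50, 39 and 19 counts with NC and 1, 14 and 10 counts with miR-497. All miR-497 values were below all NC values in CPM (0.675 to 1.51 with NC and 0.0398 to 0.441 with miR-497), and both groups were widely spread. Its log2 fold change of -1.95 had the largest standard error among the members (SE 0.568, adjusted p = 0.0088 by edgeR). It was -1.49 (adjusted p = 0.0344 by edgeR) without miR-497 library 1, which holds the single count, and -1.65 (adjusted p = 0.0477 by edgeR) without NC library 1.

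Of the short members only Slfn2 was expressed. Slfn2 (ENSMUSG00000072620), the quiescence factor of T cells, was measured at 6.70, 5.81 and 5.22 CPM with NC and at 1.79, 2.23 and 2.00 CPM with miR-497. The lowest NC value lay well above the highest miR-497 value. Its log2 fold change was -1.55 (SE 0.208, adjusted p = 9.41e-06 by edgeR), which left 34.1%, on 45 to 222 counts per library. Slfn1 (ENSMUSG00000078763), the founding member and the only one with a 5p site, had 1, 4 and 0 counts with NC and 4, 0 and 0 counts with miR-497. It was removed by the filter, and the groups overlapped. A count of 0 allows up to 3 counts, or 0.0944 to 0.106 CPM in the 3 libraries concerned, so no change of Slfn1 was detectable at this depth.

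**Figure D2:**
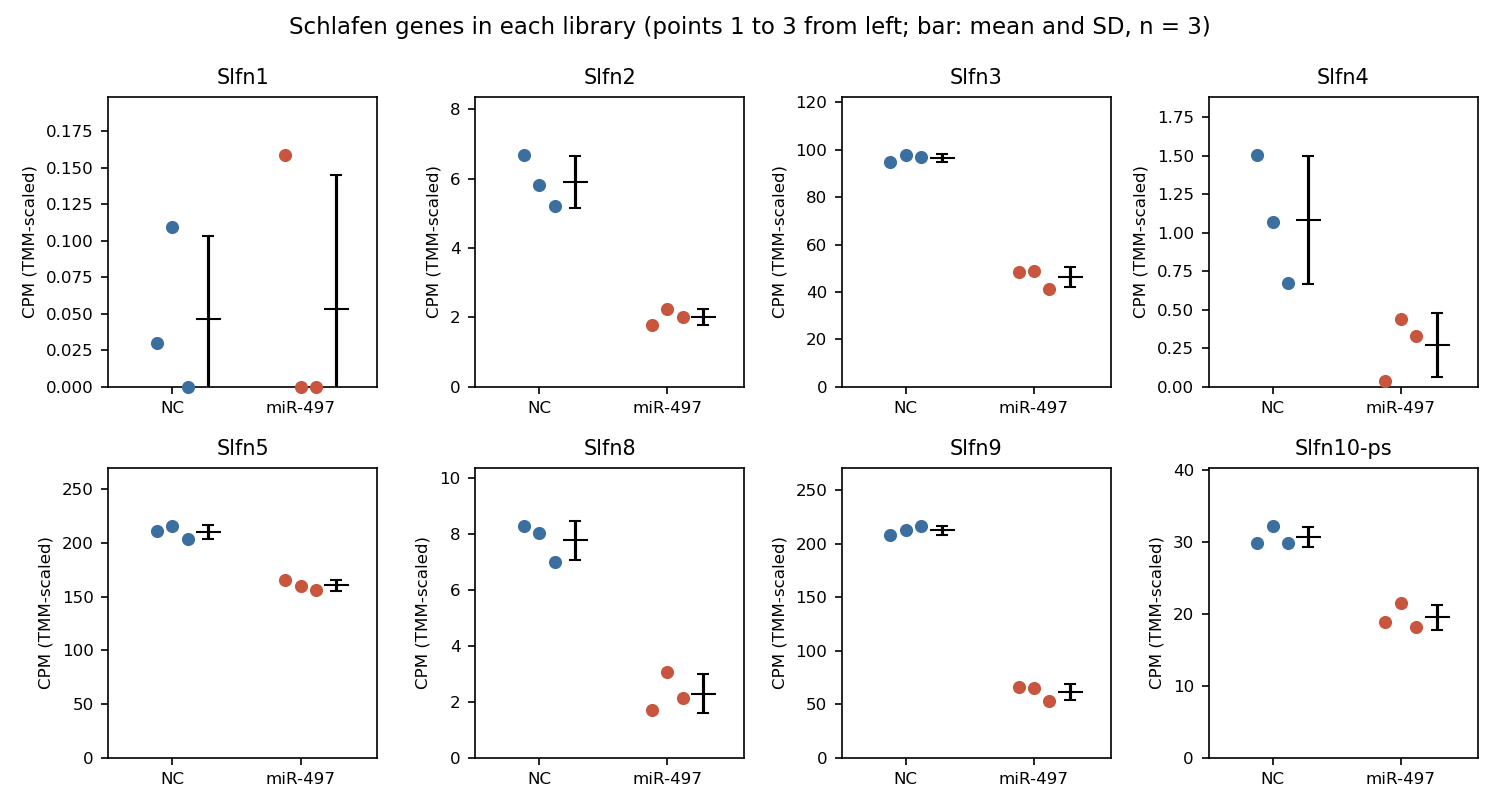
Levels of the 7 members and of the pseudogene Slfn10-ps in CPM, each on its own axis from 0, with NC in blue and miR-497 in red. Points are libraries 1 to 3 from left to right, and the black bar is the mean with its SD (n = 3), drawn down to 0 at most. In every panel except that of Slfn1 the 3 miR-497 points sit below the 3 NC points, as was so for 29.6% of all tested genes. For Slfn5 the gap is 166 against 204 CPM.

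The order of the members by level per kilobase of exon differed between groups. To compare levels between genes, CPM was divided by the kilobases of merged exons (RPKM). With NC the levels were 35.6 ± 0.700 RPKM for Slfn9, 33.2 ± 0.999 for Slfn5, 28.3 ± 0.459 for Slfn3, 3.55 ± 0.447 for Slfn2, 1.90 ± 0.167 for Slfn8, 0.273 ± 0.105 for Slfn4 and 0.0250 ± 0.0304 for Slfn1 (SD, n = 3). No neighbours in that order overlapped. With miR-497 the order was Slfn5 (25.4 ± 0.802 RPKM), Slfn3 (13.6 ± 1.27), Slfn9 (10.3 ± 1.23), Slfn2 (1.21 ± 0.134), Slfn8 (0.562 ± 0.168), Slfn4 (0.0680 ± 0.0522) and Slfn1 (0.0285 ± 0.0493; SD, n = 3), where only Slfn4 and Slfn1 overlapped. In RPKM, Slfn9 stood above Slfn5 and Slfn3 with NC and below both with miR-497. This order depends on the exon lengths used. In CPM, Slfn9 overlapped Slfn5 with NC (208 to 217 against 204 to 216). With miR-497 its mean CPM stayed above that of Slfn3 (61.4 against 46.3).

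As a share of all Schlafen counts per kilobase, Slfn5 went from 32.3% ± 0.634 with NC to 49.7% ± 2.08 with miR-497, and Slfn9 from 34.6% ± 0.891 to 20.1% ± 1.20 (SD, n = 3). Slfn3 kept a similar share, at 27.5% ± 0.375 and 26.5% ± 0.894, while its own level fell to 47.9%. Together the 7 genes summed to 530 to 541 CPM in NC libraries and 255 to 284 CPM in miR-497 libraries. These shares are a description and depend on the exon lengths used.

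**Figure D3:**
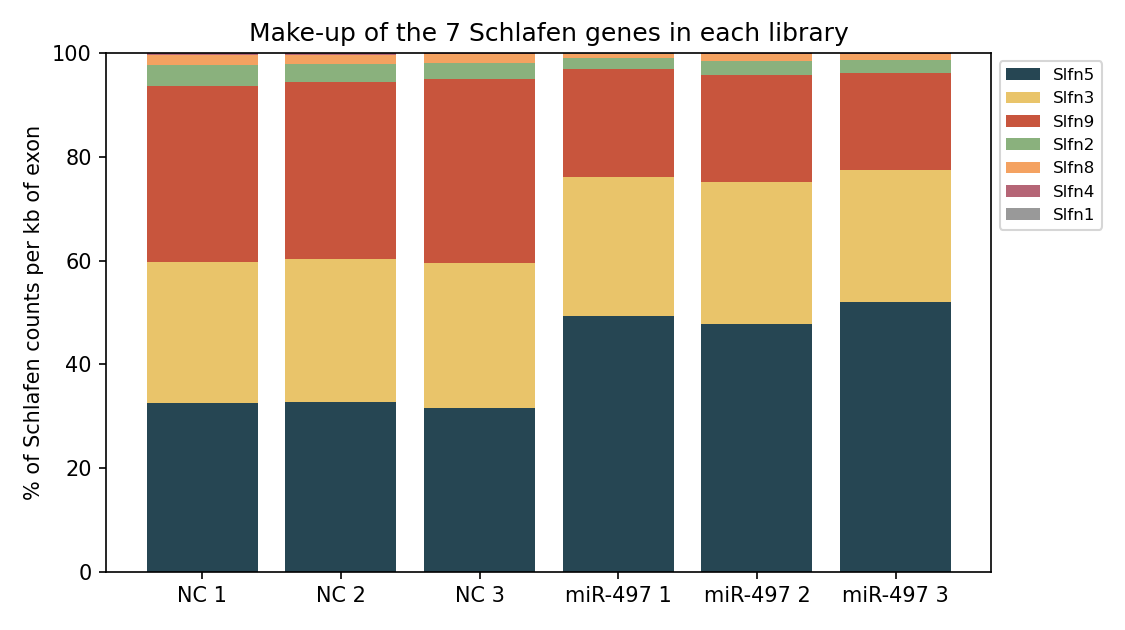
Make-up of the 7 Schlafen genes in each of the 6 libraries, as the percentage of their summed counts per kilobase of exon. The dark band of Slfn5 takes 32.3% on average with NC and 49.7% with miR-497, and the red band of Slfn9 narrows from 34.6% to 20.1%.

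Of the 15 pairs of members, which share genes, 8 had log2 ratios that did not overlap between groups, or 53.3%. Of single tested genes, 57.4% had groups that did not overlap in CPM, but that share is no baseline for ratios of pairs. These 8 were the pairs of Slfn5 with each of the other tested members and the pairs of Slfn3 with Slfn2, Slfn8 and Slfn9. The Slfn3 to Slfn9 ratio went from -1.14 ± 0.0225 to -0.40 ± 0.0429 on the log2 scale (SD, n = 3), a difference of 0.73. The ratio of Slfn8 to Slfn9 was -4.77 ± 0.157 with NC and -4.76 ± 0.439 with miR-497, a difference of 0.01 (exact permutation test, p = 0.9). That spread does not show that the paralogs changed alike. The difference for Slfn4 and Slfn9, at -0.51, became 0.46 without miR-497 library 1, so the data give no order of change between them.

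Reads of paralogs can be misassigned, and the treatment of reads that align to several places is not given in the sources used here. Of all words of 50 bases in the annotated transcripts, 14.6% of those of Slfn8 and 11.9% of those of Slfn9 also occur in another gene, mainly in each other and in the pseudogene Slfn10-ps. The shares were 16% for Slfn3, 11.3% for Slfn4, 4.27% for Slfn2, 11.1% for Slfn5 (mostly words from the opposite strand, shared with Slfn5os) and 0.606% for Slfn1. Slfn8, Slfn9 and Slfn10-ps summed to 251 ± 3.82 CPM with NC and 83.3 ± 8.81 CPM with miR-497 (SD, n = 3), and Slfn3 with Slfn4 to 97.7 ± 1.33 and 46.6 ± 4.31 CPM. The log2 ratios of these means were -1.59 and -1.07; since each gene summed was lower in every miR-497 library, the direction of the sums was given. With NC the level was 212 CPM for Slfn9 and 7.77 CPM for Slfn8, and how far misplaced Slfn9 reads enter the value of Slfn8 was not tested.

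Other Schlafen-named genes were compared next. Slfn10-ps, a transcribed pseudogene between Slfn8 and Slfn2, had 993, 1179 and 842 counts with NC and 476, 685 and 556 with miR-497. It fell by 0.65 on the log2 scale (SE 0.0853, adjusted p = 7.47e-06 by edgeR), with no overlap between groups. Slfn5os did not pass (log2 fold change 0.14, SE 0.439, adjusted p = 0.815 by edgeR). Slfn14, which lies in the same cluster, had 0 to 7 counts per library and Slfnl1, on chromosome 4, had 1 to 9, and neither was tested.

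Further transcripts inside the cluster, named for their position, also differed. The non-coding gene 1190001M18Rik, just beyond the 3' end of Slfn9, had 33, 24 and 25 counts with NC and 5, 6 and 6 with miR-497, a log2 fold change of -2.09 (SE 0.494, adjusted p = 0.00196 by edgeR). It passed the filter on low counts through its NC libraries alone, so its direction was partly set by the filter. RefSeq draws Slfn9 from 82974316 to 82991830, which takes this transcript in. Between Slfn3 and Slfn14, AI662270 fell by 0.83 on the log2 scale (SE 0.0954, adjusted p = 1.72e-06 by edgeR) and the pseudogene Gm11427 by 0.30 (SE 0.0931, adjusted p = 0.0138 by edgeR). Gm11427 shares words with Slfn3 and Slfn4. Gm11425, a pseudogene beside Slfn10-ps, did not pass (log2 fold change -0.35, SE 0.219, adjusted p = 0.195 by edgeR).

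Of 9 tested flanking genes, 5 on the side of Slfn5 and 4 on the other, 3 were lower, 1 was higher and 5 did not pass, with a median log2 fold change of -0.13. These counts are near the shares over all tested genes, of which 26.0% were lower and 23.8% higher. Unc45b, a myosin chaperone gene next to Slfn5, fell by 1.07 on the log2 scale (SE 0.355, adjusted p = 0.0195 by edgeR) on 17 to 76 counts per library. Rasl10b fell by 1.49 (SE 0.454, adjusted p = 0.0114 by edgeR) on 9 to 69 counts. Like Slfn4, it had too few miR-497 libraries over the cut-off of the filter to pass without NC. The abundant Ap2b1, a subunit of the clathrin adaptor, fell by 0.18 (SE 0.0544, adjusted p = 0.0112 by edgeR), and Mmp28, a matrix metalloprotease, rose by 0.13 (SE 0.0541, adjusted p = 0.0491 by edgeR). Unc45b lost its call without NC library 2 (adjusted p = 0.0806 by edgeR) or miR-497 library 3 (0.0865), Rasl10b without NC library 2 (0.12) or miR-497 library 2 (0.0508), and Ap2b1 without NC library 2 (0.0785) or NC library 3 (0.0765). Of the fits with 1 library left out, Mmp28 kept its call in that without miR-497 library 1; leaving out any other library gave an adjusted p from 0.0577 to 0.226 by edgeR. Rad51d (0.09), Nle1 (-0.13), Rffl (0.32), Fndc8 (-0.84) and 1700020L24Rik (0.05) did not pass, with edgeR adjusted p-values from 0.104 to 0.576.

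**Figure D4:**
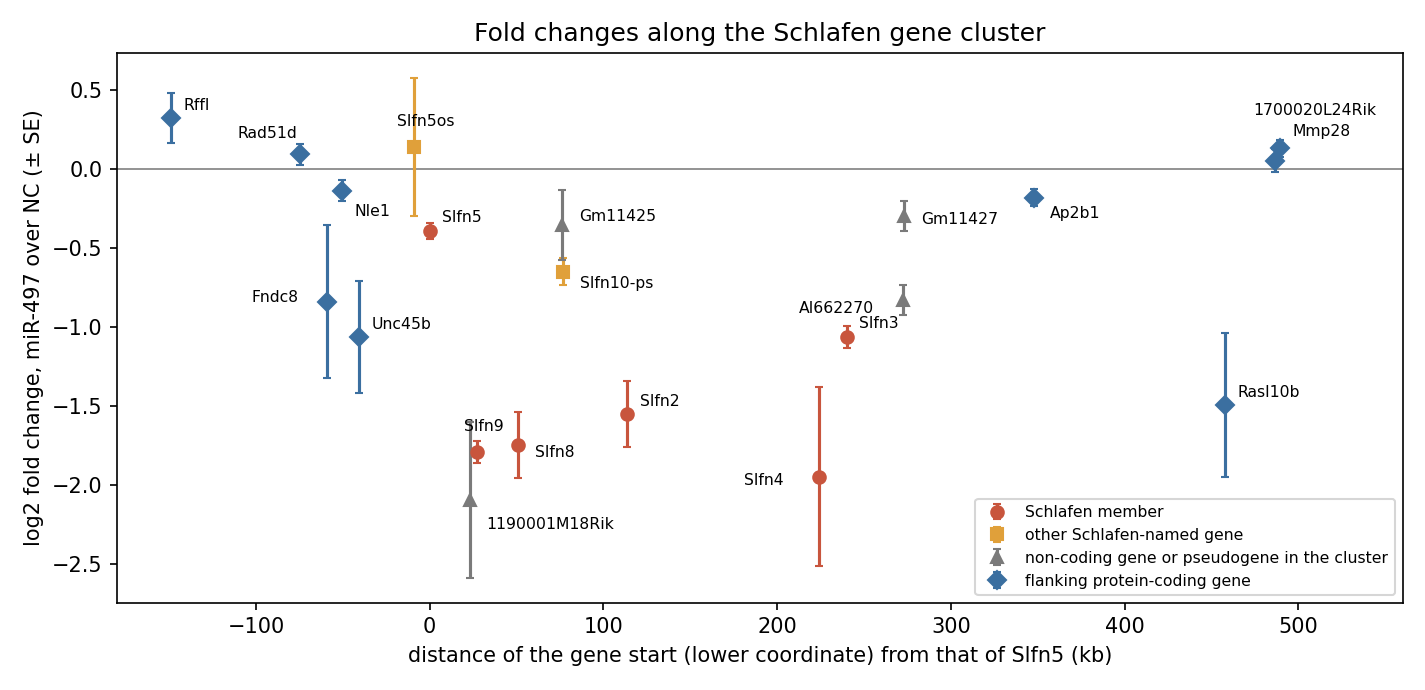
Log2 fold change (miR-497 over NC, with its SE) of each tested gene against the distance of its start from that of Slfn5 in kb. Red circles are members, orange squares other Schlafen-named genes, grey triangles non-coding genes and pseudogenes of the cluster, and blue diamonds flanking protein-coding genes. The members lie between -1.95 and -0.39, and 6 of the 9 diamonds lie between -0.18 and 0.32.

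The members were set beside other genes of the interferon system, in lists chosen with earlier results of these data known. Of 29 tested interferon-stimulated genes outside the family, 29 were lower, with a median log2 fold change of -3.04, beside 26.0% lower over all genes. Of the 29, Mx1, Oas2 and Oas3 had too few miR-497 libraries over the cut-off of the filter to pass without NC, which partly set their direction. The other 26 passed in all libraries and were lower, with a median of -2.62. The members' falls were smaller than most of the 29: 22 of the 29 fell more than Slfn9 and 22 more than Slfn4, 23 more than Slfn8, 24 more than Slfn2 and 27 more than Slfn3. All 29 fell more than Slfn5, the smallest being that of Trim25 at -0.70. By the smallest p, the leading genes of the list were Ifit3b (-5.22, SE 0.0915, adjusted p = 5.84e-16 by edgeR), Ifit3 (-4.25), Cmpk2 (-3.14) and Isg15 (-3.85). Ifit3 and Ifit3b are near-identical copies, so their separate values are uncertain; they encode antiviral proteins, and Isg15 a ubiquitin-like modifier.

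Several factors that carry the interferon signal to ISRE promoters were lower as well. Of 20 tested genes for receptors, kinases, transcription factors and feedback inhibitors, 10 were lower, 6 higher and 4 did not pass, with a median log2 fold change of -0.24. The shares over all genes were 26.0% lower and 23.8% higher. Stat2 fell by 1.99 on the log2 scale (SE 0.0646, adjusted p = 5.08e-13 by edgeR) and Irf7, a factor that amplifies interferon production, by 2.87 (SE 0.0971, adjusted p = 8.32e-13 by edgeR). The kinase gene Jak2 fell by 0.98 (SE 0.0518, adjusted p = 1.76e-10 by edgeR), whereas the kinase genes of the type I receptor, Jak1 (-0.05, adjusted p = 0.496 by edgeR) and Tyk2 (-0.000775, adjusted p = 0.998 by edgeR), did not pass. Jak1, Tyk2 and the next genes were named after their values were seen. Another part of the ISRE complex, Irf9, had a log2 fold change of -1.21 (adjusted p = 2.48e-09 by edgeR). The receptor genes Ifnar1 (0.18, adjusted p = 0.0205 by edgeR) and Ifnar2 (0.37, adjusted p = 0.0032 by edgeR) were called higher. Stat2 and Irf9 are themselves induced by interferon, so their direction is not separate from that of the list above.

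No interferon gene passed the filter on low counts. Of 21 ligand genes, 16 were at 0 in all 6 libraries. Ifnb1 had 9, 26 and 4 counts with NC and 0, 7 and 0 with miR-497, and Ifna4 had 2, 11 and 5 with NC and 0 in each miR-497 library. Their groups were too sparse for a test, and those of Ifnb1 overlapped. The summed ligand level was 0.320 to 1.15 CPM with NC and 0 to 0.220 CPM with miR-497.

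Of 10 tested sensors of double-stranded RNA and their adaptors, 6 were lower, 2 higher and 2 did not pass, with a median of -1.11. Beside them, 26.0% of all genes were lower and 23.8% higher. Dhx58, a helicase of the RIG-I group, fell by 2.86 on the log2 scale (SE 0.0913, adjusted p = 4.4e-13 by edgeR) and Ifih1, the sensor MDA5, by 2.30 (SE 0.0882, adjusted p = 4.5e-12 by edgeR). Ddx58, the sensor RIG-I, fell by 1.42, and Eif2ak2, the kinase that halts translation, by 1.14 (adjusted p = 1.05e-10 by edgeR and 2.25e-10). The 2 higher genes were the adaptor genes Mavs (0.37, adjusted p = 0.000411 by edgeR) and Ticam1 (0.39, adjusted p = 0.00702 by edgeR), named after their values were seen. Whether the falls of the sensors are separate from those of the interferon-stimulated list was not tested.

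Genes of transfer RNA handling were listed because Schlafen proteins act on transfer RNA. Of 8 tested, 3 were lower, 1 was higher and 4 did not pass, beside 26.0% lower and 23.8% higher over all genes. Rnh1, the inhibitor of angiogenin-like ribonucleases, rose by 0.58 on the log2 scale (SE 0.0542, adjusted p = 1.73e-07 by edgeR). The transfer RNA methyltransferase gene Trdmt1 fell by 0.78 (SE 0.141, adjusted p = 0.000181 by edgeR), and the 3'-end nuclease genes Elac2 and Elac1 by 0.41 and 0.50 (adjusted p = 4.3e-05 by edgeR and 0.000524).

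A list of cell-cycle genes held both drivers and inhibitors of division. Of 17 tested, 14 were lower, 1 higher and 2 did not pass, with a median log2 fold change of -0.34. Over all genes 26.0% were lower and 23.8% higher. When single libraries were left out, 11 to 14 genes of the list were lower. Ccnd3 (-2.12), Ccnd2 (-1.49) and Ccne1 (-1.99), cyclins of G1 and of S-phase entry, and Top2a (-0.74), a topoisomerase of dividing cells, had edgeR adjusted p-values from 8.28e-13 to 7.48e-07. The 14 include Cdkn1b (-0.24, adjusted p = 0.00317 by edgeR), which encodes an inhibitor of cyclin-dependent kinases, while the inhibitor gene Cdkn1a (0.11, adjusted p = 0.106 by edgeR) did not pass; both were named after their values were seen. Whether these and the Schlafen changes depend on each other was not tested.

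**Figure D5:**
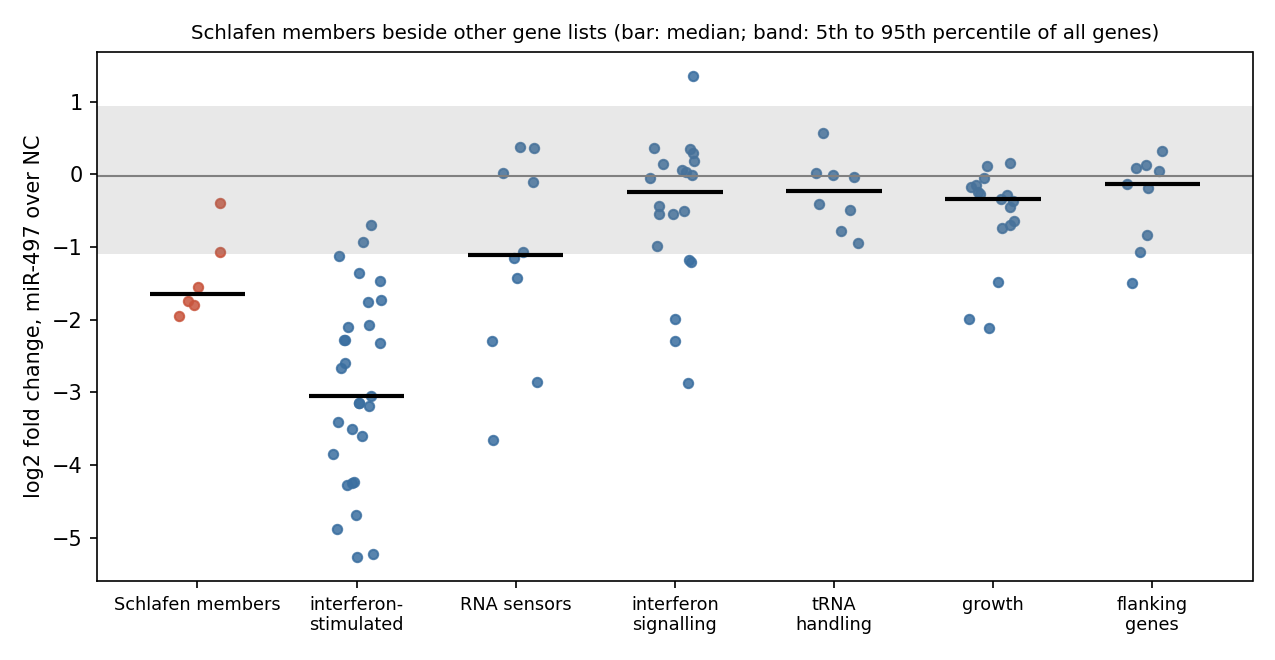
Log2 fold changes (miR-497 over NC) of the 6 tested members, in red, beside the tested genes of 5 lists and the 9 flanking genes, in blue. Black bars are medians, and the grey band runs from the 5th to the 95th percentile of all tested genes (-1.10 to 0.94). Of the members, 4 lie below the band, with medians of -1.65 for the members and -3.04 for interferon-stimulated genes.

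For each tested member, the 3 genes with the nearest profile over the 6 libraries were found among 10333 or 10334 other genes with a mean log2 CPM of at least 2. Nearness was the root mean square difference of log2 CPM centred on each gene's mean. With 2 groups of 3 libraries, this mainly finds genes with a similar log2 fold change, such as -1.05 for Mthfd1l beside -1.06 for Slfn3. The smallest of many distances is small by the search itself, and shared regulation was not tested. Slfn9 was nearest to Hoxb9 (0.0351), Parp14 (0.0427) and Hsd17b7 (0.0485), and Slfn8 to Trim30d (0.129), Rnf213 (0.161) and Uhmk1 (0.189). Slfn2 was nearest to Gm47015 (0.0973), Vti1b (0.112) and Atg9b (0.112), and Slfn3 to Mthfd1l (0.0143), Hars (0.0263) and Rad51ap1 (0.0286). Slfn5 was nearest to Polr2c (0.00842), Ccnc (0.0179) and Cnbp (0.0190), and Slfn4 to AW011738 (0.467), Slfn8 (0.579) and Il15ra (0.602).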

How the data were processed

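Poly(A)-selected RNA from 6 libraries of ADC106 cells, 3 per group, was analysed from raw counts of reads per Ensembl gene, which the authors deposited without normalization. The submitters' processing notes name STAR 2.5.4b, featureCounts of Subread 1.6.1, edgeR 3.32.1 and GRCm38, without their order; the strand setting and annotation release are not given in the sources used here. Symbols matched 55141 of 55401 identifiers. No other sample columns were present. Counts were tested with edgeR 4.0.16 in R 4.3.3 (filterByExpr with minimum count 10, minimum total 15, TMM scaling, quasi-likelihood F-test, group as the only term; Benjamini-Hochberg over all genes). The standard error is the log2 fold change divided by the square root of F. CPM and RPKM were computed here, the latter with merged exon lengths of GENCODE M21 (GRCm38). Log2 ratios of members used an added count of 0.5. Alternatives used DESeq2 1.42.0, limma 3.58.1 voom, other scalings and filters, the replicate number as a block, and each library left out. The fits were tested on simulated data.

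The members and lists were chosen with earlier results of these data known. Named were all members, other Schlafen-named genes, up to 5 tested flanking genes on each side, the 4 genes with the smallest p of each list (for marker lists, levels only) and the 3 nearest profiles per member; some genes under this rule are not reported here, and genes outside it are marked in the text or named for their position. Between libraries of a group, chi-square per degree of freedom was 6.30 to 9.44 (70.1 to 85.2 across the groups), so no library was a copy of another. Intervals and limits of a count of 0 cover counting error only.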

Additional observations from a re-analysis of the deposited data

How the results depend on the processing

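All 77 combinations of a tested member and an alternative kept the direction and stayed past the threshold. The log2 fold changes ranged from -1.85 to -1.69 for Slfn9, -2.01 to -1.58 for Slfn8, -0.41 to -0.34 for Slfn5, -1.11 to -0.98 for Slfn3, -1.63 to -1.46 for Slfn2 and -2.47 to -1.49 for Slfn4, whose adjusted p ran from 0.000608 to 0.0477. Slfn4 could not be fitted with a mean count of at least 50, which left 5 members, all lower. Without a filter Slfn1 had a log2 fold change of 0.04 (edgeR adjusted p = 0.99). Leaving out single libraries gave 3029 to 3350 higher and 3374 to 3608 lower genes.

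Replicate numbers are shared between groups, but same-numbered libraries did not deviate together (mean correlation -0.0956; 0 of 3 NC libraries correlated best with their own number). With the replicate number as a block, 6 members were lower, with 3177 genes higher and 3563 lower. Of the 47 other genes refitted with the block, Mmp28 lost its call (edgeR adjusted p = 0.105).

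Of the 15 differences between members, 4 changed sign when single libraries were left out, 3 of them with the sparse Slfn4: Slfn8/Slfn9 ran from -0.16 to 0.26, Slfn2/Slfn4 from -0.069 to 1.24, Slfn4/Slfn8 from -0.91 to 0.20 and Slfn4/Slfn9 from -1.02 to 0.46. Of 607 combinations of another named gene and an alternative, 591 kept direction and call, 14 lost the call, 1 gained it and 1 changed sign. That was Slfn5os, which ran from -0.0075 to 0.35 without single libraries. The cause was not tested.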
